A study of Mus musculus with 10 samples.

Results

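The immediate early AP-1 and Egr genes are 10 transcription factor genes and close companions: the Fos family (Fos, Fosb, Fosl1, Fosl2), the Jun family (Jun, Junb, Jund), the zinc finger factor Egr1, the stress-response factor Atf3 and the nuclear protein Ier2. They were taken by name from 55341 genes in the bulk tables and 32285 genes in the single-cell matrix, and all 10 were found in both. KP cells, a mouse lung adenocarcinoma line, had been injected into a vein of syngeneic mice, whose lung tumours were then treated for 11 days. In the bulk experiment, Epcam+ cells were sorted from dissociated nodules of mice given vehicle (3 libraries) or SHP099 (3 libraries). In the single-cell experiment, live cells came from mice given vehicle, SHP099, SX682 or both drugs (the combination), with 3 hashtagged mice pooled into 1 capture per treatment. SHP099 is an allosteric inhibitor of the phosphatase SHP2, which relays signals from receptor tyrosine kinases towards ERK, and SX682 inhibits the chemokine receptors CXCR1 and CXCR2. All groups carried the same tumour line and went through tissue dissociation; the strain, sex and age of the mice are not stated in the labels.

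Immediate early genes are transcribed within minutes of a stimulus without new protein synthesis, because their promoters are held ready for factors such as CREB, the ternary complex factors with SRF, and AP-1 itself. Fos and Jun proteins pair to form AP-1, which drives genes of inflammation, matrix turnover and growth; Egr1 binds GC-rich sites and switches on its own brake, Nab2. The same genes respond to ERK, to the stress kinases JNK and p38, and to the handling of tissue during dissociation, and in neutrophils and macrophages they also take part in the normal activation programme.

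RefSeq promoter entries (build GRCm38.p6, the 250 bases before the transcription start) were matched for 7 of the 10 genes: Fos, Fosb, Fosl2, Jun, Junb, Jund and Atf3. The strings searched on both strands were TGACGT (the core of the cyclic AMP response element), TGACTCA (the AP-1 site), TGACATCA (a variant AP-1 site) and GCGGGGGCG (an EGR site), together with the CArG box of SRF. TATAAA was searched on the gene's strand only and can lie inside a CArG box; no other of these strings lies within another. The 4 promoters below are shown because together they hold a cyclic AMP, an AP-1 and an EGR type string, the classes of input through which these genes answer signals and one another. Capitals mark the matches: in Fos TGACGT at 66 to 61 bases before the start (chr12:85473640-85473889, plus strand) and TATAAA at 33 to 28; in Jun TGACATCA at 45 to 38 (chr4:95052223-95052472, minus strand); in Atf3 ACGTCA, which is TGACGT on the other strand, at 8 to 3 (chr1:191183334-191183583, minus strand); in Fosb GCGGGGGCG at 50 to 42 (chr7:19310046-19310295, minus strand).
Fos: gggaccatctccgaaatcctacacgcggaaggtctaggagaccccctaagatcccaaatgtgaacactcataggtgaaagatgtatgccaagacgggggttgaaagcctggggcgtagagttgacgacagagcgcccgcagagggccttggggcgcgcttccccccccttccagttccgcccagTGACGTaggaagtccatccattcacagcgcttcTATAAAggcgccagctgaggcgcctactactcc
Jun: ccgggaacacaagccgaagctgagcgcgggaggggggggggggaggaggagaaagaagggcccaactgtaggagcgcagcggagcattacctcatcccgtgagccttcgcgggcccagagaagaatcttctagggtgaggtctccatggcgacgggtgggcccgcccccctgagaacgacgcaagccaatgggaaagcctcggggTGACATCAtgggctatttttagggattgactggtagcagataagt
Atf3: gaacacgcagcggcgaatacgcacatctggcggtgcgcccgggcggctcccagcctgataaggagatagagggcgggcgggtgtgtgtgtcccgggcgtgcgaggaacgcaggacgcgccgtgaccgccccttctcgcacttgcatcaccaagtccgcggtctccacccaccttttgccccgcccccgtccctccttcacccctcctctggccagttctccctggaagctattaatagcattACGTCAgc
Fosb: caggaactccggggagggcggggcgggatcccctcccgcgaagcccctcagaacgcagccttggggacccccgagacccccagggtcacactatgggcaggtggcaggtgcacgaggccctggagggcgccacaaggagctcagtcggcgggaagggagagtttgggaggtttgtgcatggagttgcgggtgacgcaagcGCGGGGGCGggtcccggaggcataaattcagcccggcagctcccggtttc
Fosl2 held GCGGGGGCG as well, at 79 to 71 bases before its start, and the windows of Junb and Jund held none of the strings. The Jund window (chr8:70697489-70697738, plus strand) ends well before the gene start at 70698949 in the annotation used for exon lengths. The bases next to that start were therefore not searched. In the same annotation the Atf3 window lies inside its gene, which starts at 191218039 on the minus strand. The Fosl2 window (chr5:32136222-32136471, plus strand) likewise lies past the annotated start at 32135801. Match positions are counted from the RefSeq starts. Among 32851 RefSeq promoter windows of the same length, TGACGT was present in 6.47%, TGACATCA in 2.93%, GCGGGGGCG in 2.57% and TATAAA in 7.59%. TGACTCA (4.46%) and the CArG box (1.47%) matched in none of the 7 windows. Bases further upstream than 250, and the promoters of Egr1, Fosl1 and Ier2, were not searched, so sites there would be missed. A match describes these letters and not binding of a factor.

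Bulk libraries held 51939301 to 73361005 reads counted in genes. The single-cell tables held 44986 cells in 33 clusters of the authors, and their neutrophil and T cell tables split 9540 neutrophils into states N1 to N6 and 6570 T cells into T1 to T9. Clusters were named here from marker genes, and clusters 14, 22 and 27 stayed unnamed. Of the cells, 2022 carried a barcode also present in another capture, and none shared one within a capture. Per mouse there were 179 to 1373 neutrophils, 160 to 1162 macrophages, 57 to 1123 tumour cells, 27 to 306 monocytes and 202 to 847 T cells. Tumour cells and macrophages were fewest after SHP099 (57 to 84 and 160 to 200 per mouse, against 523 to 1123 and 605 to 1162 after vehicle). Because each treatment was 1 capture, treatment and capture cannot be told apart in any single-cell comparison.

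In the sorted Epcam+ cells the 10 genes were abundant. Levels between genes are compared per length here, as RPKM (reads per kilobase of exon, scaled to sequencing depth; mean ± SD over all 6 libraries). Fos was highest at 624 ± 125, followed by Junb at 416 ± 46.2, Ier2 at 318 ± 55.3, Jun at 223 ± 42.4, Egr1 at 180 ± 40.1 and Atf3 at 179 ± 21.2. Jund at 27.5 ± 17.1, Fosl1 at 12.2 ± 3.10, Fosb at 8.63 ± 2.06 and Fosl2 at 6.99 ± 0.506 formed a lower tier. By CPM, Fos ranked 39 among all genes. The counts were made without strand, so reads of Jun and its antisense gene Junos cannot be told apart; exons of Fosl1, Junb and Jund also overlap those of Ccdc85b, Prdx2 and Gm11175. These 4 bulk values are uncertain for that reason, whereas exons of the other 6 genes overlap none.

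Across single-cell classes the neutrophils carried the most transcripts of this family. Levels are CPM, a gene's UMIs scaled to the total UMIs of a mouse in the class, as mean ± SD over the mice of all treatments with at least 10 cells; UMIs count transcript ends and need no length. The 10 genes made up 1.10% ± 0.109 of neutrophil UMIs (n = 12), 0.575% ± 0.141 in monocytes (n = 12), 0.536% ± 0.209 in fibroblasts (n = 8) and 0.476% ± 0.0644 in tumour cells (n = 12). Macrophages had 0.305% ± 0.0766, T cells 0.130% ± 0.0254 and NK cells 0.117% ± 0.0202 (n = 12 each). The clusters were built on expression, these genes included, so differences between classes are given as description without a test.

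**Figure D1:**
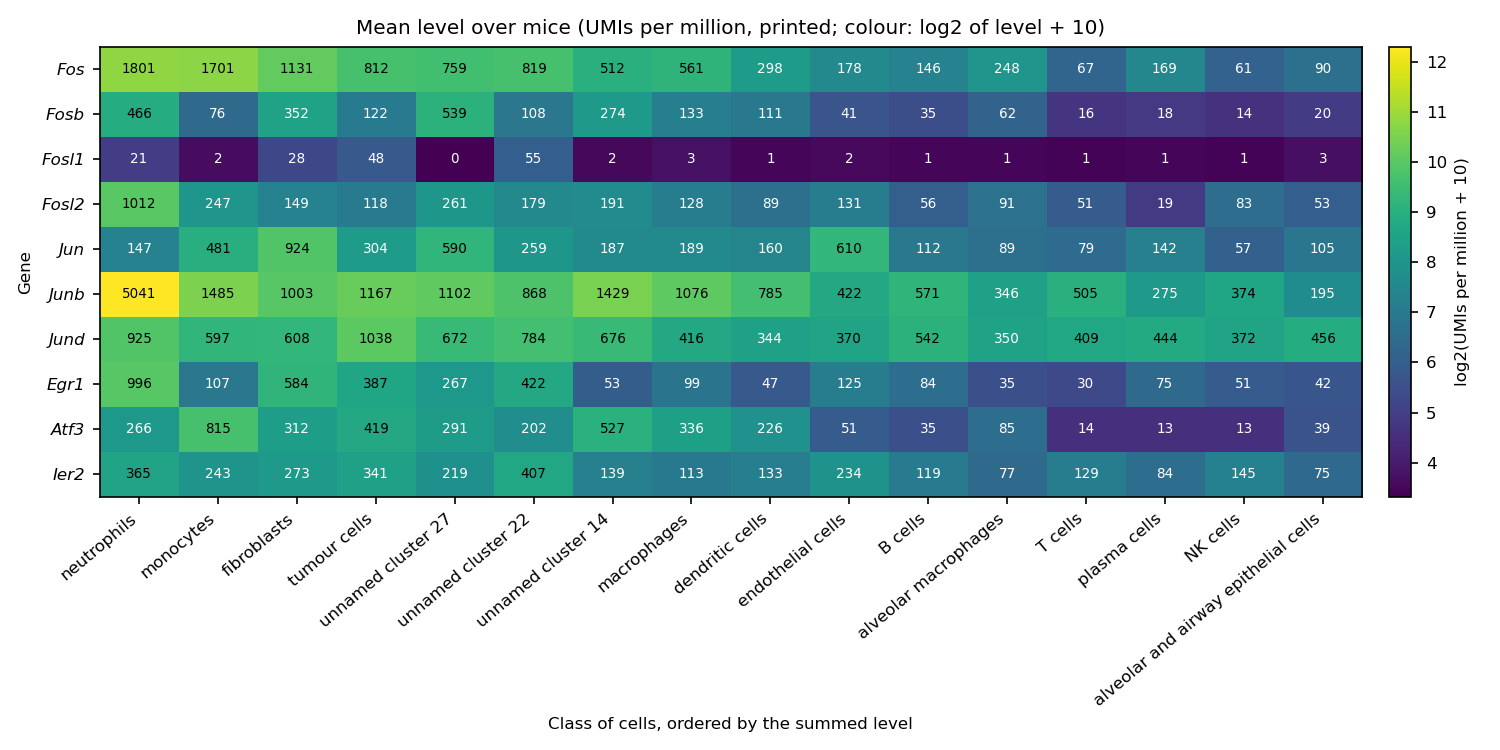
Mean level of each gene (rows; CPM, printed in the cell, colour on a log2 scale of level + 10) in each class of cells (columns, ordered by the summed level). Junb in neutrophils (5041) is the highest value, Fosl2 (1012) is several times higher there than in any other class, and Jun is highest in fibroblasts (924).

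Among the Fos family, Fos itself, the main partner of Jun proteins, was at 1801 ± 224 CPM in neutrophils, 1701 ± 643 in monocytes and 1131 ± 584 in fibroblasts. These 3 levels do not differ beyond their spread over mice. NK cells were lowest at 61.0 ± 35.1, and T cells were next to them at 66.5 ± 19.1. Fosb, a close relative of Fos, reached 539 ± 111 in unnamed cluster 27 and 466 ± 132 in neutrophils, which overlap in spread. Fosl2, a Fos relative usually expressed later and for longer than Fos, was at 1012 ± 150 in neutrophils; the next class, cluster 27, was at 261 ± 124, beyond the spread. Fosl1, known as a target of ERK signalling in carcinoma cells, was low everywhere. It was at 54.7 ± 69.7 in unnamed cluster 22 (n = 4 mice), 47.5 ± 14.8 in tumour cells, 21 ± 10 in neutrophils and 3.36 in macrophages.

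The Jun family did not share 1 order. Junb, which often restrains Jun in proliferating cells, was at 5041 ± 538 CPM in neutrophils and 1485 ± 372 in monocytes, a gap beyond the spread, and at 195 in alveolar and airway epithelial cells. Jund, the constitutively expressed member, was the flattest of the 10 genes, from 1038 ± 52.3 in tumour cells and 925 ± 177 in neutrophils to 344 in dendritic cells, a 3.01-fold range. Jun was highest in fibroblasts (924 ± 435), endothelial cells (610 ± 146) and cluster 27 (590 ± 447), and was at 147 in neutrophils.

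Egr1 was at 996 ± 315 CPM in neutrophils, 584 ± 192 in fibroblasts and 387 ± 69.4 in tumour cells, and lowest in T cells at 29.7 ± 14.4, a 33.6-fold range. Atf3, which is induced by stress and by Toll-like receptor signals and restrains cytokine genes, was highest in monocytes (815 ± 273), then in cluster 14 (527 ± 124) and tumour cells (419 ± 83.1). Within the monocytes it was concentrated in cluster 13, at 1185 ± 283, against 529 ± 190 in the next cluster, the tumour cell cluster 21. Ier2, a rapidly induced gene of the Ier family, spanned 5.45-fold between classes, with neutrophils at 365 ± 62.2 and tumour cells at 341 ± 91.1.

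At equal depth a single neutrophil also held UMIs of several of the genes. These counts follow the detection of each gene, and whether the genes shared cells beyond that was not tested. With each cell of at least 1000 UMIs thinned to 1000 UMIs, a neutrophil had UMIs of 4.09 of the 10 genes on average (5305 cells), a tumour cell of 3.16, a macrophage of 2.09 and a T cell of 0.869. At least 3 of the genes were seen in 84.4% of thinned neutrophils and in 6.49% of thinned T cells. Junb was detected in 93.1% of thinned neutrophils (92.7% unthinned), Fos in 65.4% (66.7% unthinned) and Egr1 in 47.1% (51.0% unthinned). The share in T cells, given as a background level, was 4.65% for Fos after thinning and 8.36% before, at median depths of 1526 UMIs in T cells and 1085 in neutrophils.

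Within the neutrophils the states differed in which gene led. N5, marked by Morrbid, Cxcl3 and Slfn1, had the highest Junb (7315 ± 995 CPM, n = 12) and Egr1 (2211 ± 556). The Egr1 level lay beyond the spread of the next state, N3, at 1261 ± 376. The Junb level lay within the spread of the next state, N2, at 5819 ± 561. N4, which expresses the granule genes Camp, Ngp and Lcn2 of immature neutrophils, was the lowest neutrophil state for Junb (3058 ± 573), Egr1 (325 ± 146), Fosb (188 ± 72.0), Fosl2 (604 ± 96.6) and Jund (519 ± 200). N6, marked by Retnlg, had the highest means over all treatments for Fos (2478 ± 536), Jund (1327 ± 220) and Fosl1 (71.4 ± 41.2). Each lay within the spread of the next state, which for Fos was N5 at 2210 ± 732. In the vehicle mice alone N6 did not lead for Fos, with N1 at 2262 ± 105, N4 at 2054 ± 153 and N6 at 2018 ± 325. Among T cell states over all treatments, mean Junb was highest in T9, the state with Pdcd1, Havcr2 and Lag3 (1000 ± 339, n = 8). The Foxp3+ state T6 was next (861 ± 240, n = 12), within the spread. The lowest was T1, led by immunoglobulin transcripts, Dapl1 and Lef1 (185 ± 76.0, n = 11). In the vehicle mice alone the order at the top differed. T8 was at 1282 ± 273 (n = 3), T6 at 1134 ± 192 (n = 3) and T9 at 875 ± 244 (n = 2).

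Over the 33 clusters, Fosl2 and Junb were the most alike pair (Pearson r = 0.91), and Fos and Fosb followed at 0.89. Jun stood apart from Junb (0.19) and Fosl2 (0.24). These correlations describe cluster means that share libraries and differ in depth. Of 7882 genes reaching 50 CPM in a cluster, those whose profile was most like the mean profile of the 10 genes included Dusp1 (r = 0.93), Trib1 (0.93), Ier3 (0.92) and Ifrd1 (0.92). Dusp1 encodes a phosphatase that switches off stress kinases, and Ier3 is another immediate early gene.

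Treatment comparisons used UMI counts summed per mouse, with edgeR's quasi-likelihood test and Benjamini-Hochberg adjustment over all genes tested in the class; a gene was called at an adjusted p below 0.05. Values of single genes below are CPM over the UMIs (reads in bulk) of the genes tested in that fit, scaled by TMM. They are therefore not on the scale of the levels above, most of all where few genes were tested (663 in state T8). Summed levels of lists and markers are over all UMIs or reads. Differences are log2 fold changes with standard errors (SE). The comparisons with vehicle share the same 3 vehicle mice. Over 13 classes, SHP099 gave 6 higher and 17 lower calls among 111 tests of the 10 genes, beside 11.3% of all tests of genes in these classes. The combination gave 6 higher and 25 lower calls among 129 tests in 15 classes (6.06% of all tests), and SX682 gave none among 129 (0.602%), with 26 at an unadjusted p below 0.05. Percentages beside such counts are shares of genes called after adjustment. For the single-cell comparisons the share of all genes at an unadjusted p below 0.05 is not given, so these unadjusted counts have no background.

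In neutrophils, Fosb, Egr1, Jund, Atf3 and Fosl2 were higher and Fosl1 was lower after SHP099, while Fos, Jun, Junb and Ier2 did not pass the test. These 6 of 10 calls stand beside 13.1% called among all 7477 genes. With equal cell numbers per mouse only 1 of the 6, Fosb, was called, and Fosl2 was called in 5 of 13 alternative runs. Fosb was at 385, 301 and 332 CPM after vehicle and 669, 599 and 407 after SHP099. Every SHP099 mouse lay above every vehicle mouse (log2 fold change 0.71, SE 0.17, adjusted p = 0.00928). Egr1 was at 764, 647 and 661 after vehicle and 1385, 842 and 1105 after SHP099 (0.68, SE 0.18, adjusted p = 0.0139). All SHP099 mice were again above all vehicle mice, and the SHP099 mice differed among themselves more than the vehicle mice did. Jund was at 1012, 783 and 661 against 1197, 1181 and 1123 (0.50, SE 0.13, adjusted p = 0.012), without overlap. Atf3 rose from 208, 239 and 203 to 332, 278 and 305 (0.49, adjusted p = 0.0164) and Fosl2 from 986, 827 and 842 to 1229, 1096 and 1022 (0.33, adjusted p = 0.0473).

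The lower call in neutrophils was Fosl1, at 49.1, 34.2 and 18.4 CPM after vehicle and 15.8, 14.5 and 14.8 after SHP099 (log2 fold change -1.34, SE 0.31, adjusted p = 0.00668). The groups did not overlap, although the third vehicle mouse was close to the SHP099 mice. N6, the state with the highest Fosl1, made up 43.5%, 26.3% and 20.4% of the neutrophils after vehicle and 16.2%, 10.5% and 14.3% after SHP099. Within N6, Fosl1 differed by -0.42 (SE 0.49, adjusted p = 0.563) and the groups overlapped. Over all treatments, N5 and N3 had the highest mean Egr1 (2211 and 1261 CPM over all UMIs) and Atf3 (411 and 380). In the vehicle mice alone, N1 (809) was above N3 (779) for Egr1. N3 made up 7.48%, 9.13% and 9.62% of the neutrophils after vehicle and 25.49%, 23.95% and 21.04% after SHP099. N5 made up 5.2%, 3.1% and 6.2%, then 11.7%, 8.7% and 12.4%. The part of the state mix in the Fosl1, Egr1, Atf3 and other neutrophil calls was not tested. Fos was at 2340, 1994 and 1961 after vehicle and 1961, 1422 and 1719 after SHP099, a log2 difference of -0.31 with a 95% interval of -0.59 to -0.02 and an adjusted p of 0.155. Ier2 was at -0.38 (adjusted p = 0.0833), Junb at 0.16 and Jun at -0.05. The number of called members fell from 6 to 2 without vehicle mouse 2 and to 3 without vehicle mouse 3.

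With both drugs, Egr1, Fosb and Fosl2 were higher and Fosl1 was lower in neutrophils, 4 of 10 genes beside 6.45% of all genes called. Egr1 reached 1562, 1353 and 1049 CPM (0.93 against vehicle, SE 0.18, adjusted p = 0.00315), and Fosb 521, 454 and 636 (0.65, adjusted p = 0.0281). Both lay above all vehicle mice. With both drugs N3 made up 30.99%, 24.11% and 35.27% of the neutrophils, and N5 9.48%, 14.64% and 10.99%. The part of this state mix in the combination calls was not tested. Jund, at 840, 898 and 934, overlapped vehicle (0.11, interval -0.16 to 0.37). After SX682 alone, none of the 10 genes was called, beside 0.508% of all genes; 3 had an unadjusted p below 0.05, among them Egr1 at 865, 1100 and 717 (0.38, interval 0.01 to 0.76). Only 2 of the 4 combination calls were left without vehicle mouse 2, without vehicle mouse 3, or without combination mouse 1 or 2. Fosl2 kept its call in 5 of 13 alternative runs and Egr1 in 13 of 13.

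**Figure D2:**
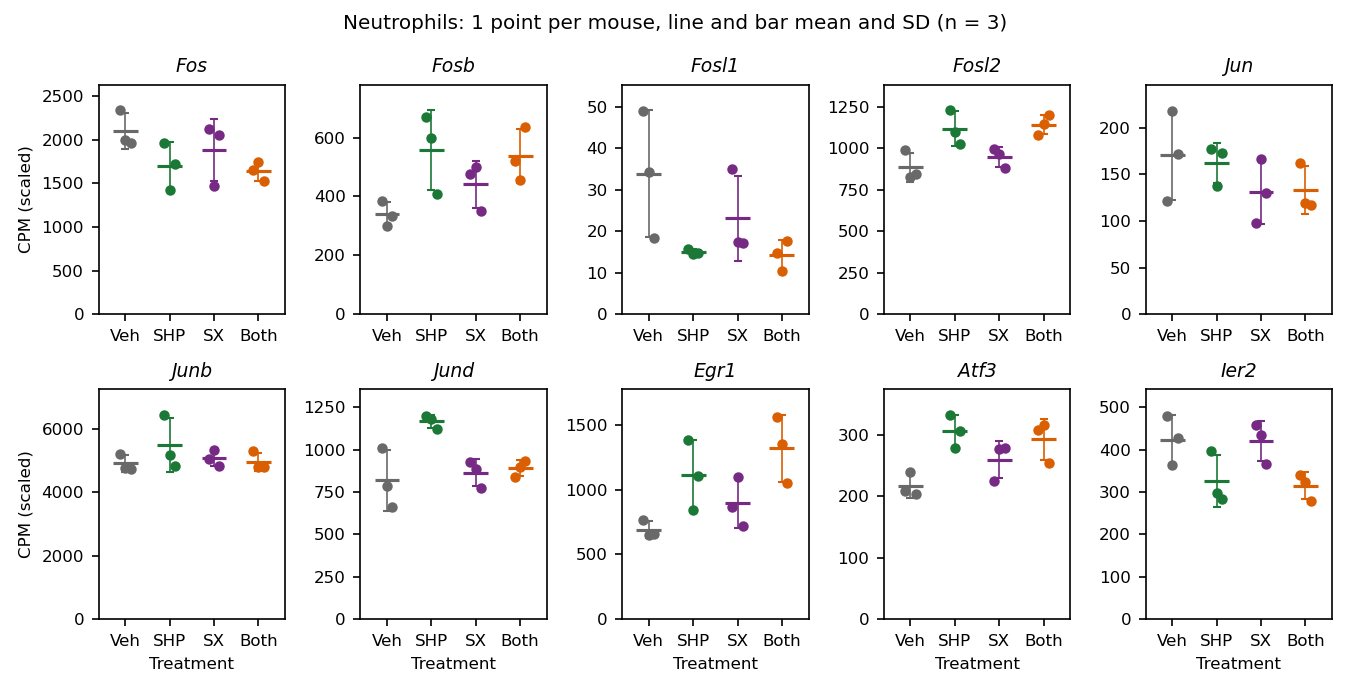
Levels of the 10 genes in neutrophils (vertical axes, scaled CPM, starting at 0) by treatment (Veh, vehicle; SHP, SHP099; SX, SX682; Both, combination); points are mice, lines and bars the mean and SD of 3. Fosb and Egr1 lie above vehicle after SHP099 and after both drugs, Fosl1 lies below, and Junb overlaps throughout.

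Around these genes in neutrophils, of 16 genes of the ERK feedback and output list (negative feedback regulators and ETS factors that follow ERK activity), 7 were expressed enough to test after SHP099. Among them, 0 rose and 1 fell, Phlda1 (-0.50), and the list's median log2 fold change was 0.34 against 0.01 for all genes. The other immediate early genes split, with 4 of 22 higher and 4 lower: Egr3, a relative of Egr1, rose by 1.35 and Maff by 0.65, whereas Zfp36, which destabilises cytokine mRNAs, fell by 0.81 and the NF-kB inhibitor gene Nfkbia fell by 0.73. In the list of other AP-1 relatives, Mafk (0.84), Jdp2 (0.79) and Atf4 (0.56) were higher. Of the EGR target list 2 of 7 were higher, Egr3 again and Nab1 (0.49), a corepressor of Egr proteins; of 12 AP-1 targets tested, Vegfa (1.12) and Cd44 (0.57) were higher and Ccl2 (-2.42) and Mmp12 (-2.10) lower. Of 11 heat shock genes, 3 rose (Hspa1b 1.11, Hspe1 0.90, Hsp90aa1 0.72) and Hspb1 fell (-3.26), and the list's summed level was 1817 to 3151 CPM after vehicle and 2659 to 3922 after SHP099. The summed macrophage markers (6 of 6 detected) were at 409 to 599 CPM in vehicle neutrophils and 272 to 296 after SHP099, tumour epithelial markers at 339 to 445 and 54.3 to 105, and neutrophil markers at 89772 to 99284 and 71871 to 86372. The part of heat shock and of RNA of other cells in the neutrophil differences was not tested.

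By state, the calls after SHP099 fell on several genes. In N2, marked by Il23a and Icam1, Fosb was at 371, 230 and 210 CPM after vehicle and 613, 695 and 818 after SHP099 (1.24, SE 0.21, adjusted p = 0.000506; 7.14% of genes called), and Jund rose by 0.70. In N5 Fosb was at 305, 0 and 384 against 924, 866 and 890 (1.73, SE 0.36, adjusted p = 0.00607; 3.15% called); the value of 0 comes from 1 of the vehicle mice, which had 14 to 54 cells of this state each. In N1 Jund was at 778, 687 and 676 against 1369, 1448 and 1523 (1.00, SE 0.13, adjusted p = 8.16e-06; 8.29% called), and Atf3 rose too (adjusted p = 0.0121). In N3, marked by Ccl3 and Ccl4, Egr1 was at 798, 874 and 830 against 1798, 1178 and 1596 (0.87, SE 0.18, adjusted p = 0.00248; 8.56% called), with Fosb at 0.85 and Fosl2 at 0.60 called too.

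The immature state N4 and the Retnlg+ state N6 also held lower calls. In N4 Fos was at 2356, 2299 and 2575 CPM after vehicle, 1455, 1045 and 1015 after SHP099 (-1.04, SE 0.19, adjusted p = 0.00713; 3.51% of genes called) and 1409, 1302 and 1047 after both drugs (-0.91, adjusted p = 0.0328; 0.81% called). Neither drug group overlapped vehicle. Jund in N4 rose (1.03). In N6 Ier2 was at 495, 404 and 461 after vehicle, 271, 253 and 180 after SHP099 (-0.93, SE 0.22, adjusted p = 0.004; 19.7% called) and 169, 271 and 210 after both drugs (-1.05, adjusted p = 0.0151; 4.91% called), while Junb (0.45) and Atf3 (0.88) were higher after SHP099. With both drugs, Fosb in N2 (1.07; 3.73% called), Egr1 in N3 (1.01; 2.12% called) and Jund (0.58) and Fosl2 (0.40) in N1 (4.07% called) were higher than vehicle.

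In macrophages, Fos, Jun and Ier2 were lower after SHP099, and 8 of the 10 genes, all but Jund and Egr1, were lower after both drugs. These counts of 3 and 8 stand beside 18% and 11.4% called among all 10861 genes. Fos was at 772, 687 and 722 CPM after vehicle, 372, 450 and 444 after SHP099 and 322, 406 and 292 after both drugs. Neither drug group overlapped vehicle, with log2 fold changes of -0.78 (SE 0.12, adjusted p = 0.000616) and -1.09 (SE 0.12, adjusted p = 0.000129). After SX682 it was at 803, 634 and 771, overlapping vehicle (0.02, interval -0.24 to 0.28). Jun was at 221, 296 and 238 after vehicle, 136, 178 and 151 after SHP099 (-0.70, SE 0.12, adjusted p = 0.00151) and 121, 103 and 98.0 after both (-1.23, SE 0.13, adjusted p = 6.61e-05). Ier2 was at 131, 161 and 157, then 74.5, 104 and 81.0 (-0.79, SE 0.13, adjusted p = 0.000833) and 76.2, 70.0 and 72.4 (-1.04, SE 0.13, adjusted p = 0.000238).

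The other macrophage calls came with both drugs. Junb was at 1135, 1280 and 1379 CPM after vehicle and 812, 778 and 647 after the combination (-0.76, SE 0.13, adjusted p = 0.00156), without overlap. Fosb was at 150, 159 and 164 against 79.5, 94.5 and 71.8 (-0.94, adjusted p = 0.0113), Fosl2 at -0.47, Atf3 at -0.50 and Fosl1 at -2.13, from 5.03 to 6.55 CPM down to 0.733 to 1.97. Egr1 was at 75.4, 116 and 191 after vehicle and 48.3, 80.0 and 71.5 after SHP099 (-0.93, adjusted p = 0.0505) and did not pass; the groups overlapped. Against SX682, the combination was lower for 6 of 10 genes (8.42% of all genes called), among them Fos (-1.11) and Jun (-1.13). Against SHP099 none was called (0.0921% of all genes), with 5 at an unadjusted p below 0.05, Jun at -0.54 (interval -0.82 to -0.26) being one. The count of 8 fell to 5 without combination mouse 3. Of these calls, Atf3 was kept in 7 of 13 alternative runs and Fosl2 in 9 of 13. SX682 alone gave 0 calls beside 1.23% of all genes, with 1 member at an unadjusted p below 0.05.

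**Figure D3:**
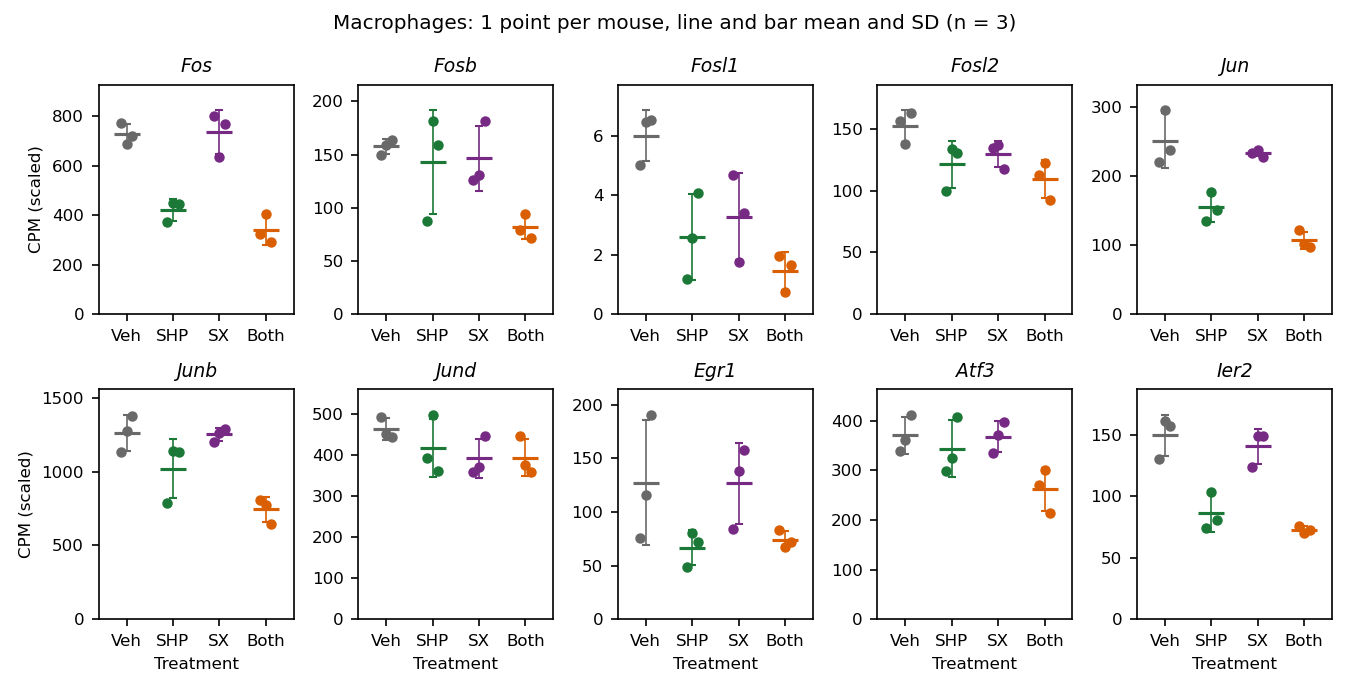
Levels of the 10 genes in macrophages (vertical axes, scaled CPM, starting at 0) by treatment (Veh, vehicle; SHP, SHP099; SX, SX682; Both, combination); points are mice, lines and bars the mean and SD of 3. Fos, Jun and Ier2 lie below vehicle after SHP099 and after both drugs, and the SX682 mice overlap the vehicle mice for these genes.

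Among the related gene lists in macrophages, of 23 other immediate early genes tested, 13 were lower and 0 higher after SHP099, and 15 were lower and 0 higher after both drugs, with medians of -0.59 and -0.83 against 0.00 for all genes. Examples after SHP099 are Klf2 (-2.03), Ier3 (-1.49) and Nfkbia (-1.28). Of 12 ERK feedback and output genes, 3 were lower (Etv5 -3.90, Epha2 -3.13, Phlda1 -1.35) and 0 higher, and the list's summed level was 304 to 363 CPM after vehicle, 151 to 225 after SHP099, 303 to 324 after SX682 and 133 to 200 after both. AP-1 targets moved both ways: 5 of 15 fell after SHP099, among them Il6 (-2.11), Ccl2 (-2.03) and Mmp9 (-1.64), and 4 rose, among them Spp1, which encodes osteopontin (1.89). Of 13 upstream regulators of AP-1, 0 fell and 2 rose, the ERK gene Mapk3 (0.76) and Rps6ka3 (0.38). Of 12 heat shock genes 3 were higher and 1 lower after SHP099, with summed levels of 4003 to 4594 after vehicle and 3487 to 4774 after SHP099, which overlap. The summed alveolar macrophage markers were at 787 to 1003 CPM after vehicle, 1480 to 2948 after SHP099 and 1925 to 2007 after both, and the 6 macrophage markers at 15367 to 15951, 11178 to 15258 and 10521 to 14033; the part of this shift in the differences was not tested, but 2 clusters could be read on their own.

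Within macrophage cluster 25, marked by Gpnmb, Trem2 and Spp1, Fos (-0.84, SE 0.21, adjusted p = 0.0221) and Jun (-0.95) were lower after SHP099, beside 6.69% of genes called. Fos (-1.37), Jun (-1.80), Ier2 (-1.33) and Atf3 (-0.78) were lower after both drugs, beside 5.38%. Within cluster 15, marked by Ccl8 and the C1q genes, Jun was lower after SHP099 (-0.62, SE 0.16, adjusted p = 0.0357; 4.7% called), and Fos (-0.71) and Jun (-0.96) after both drugs (2.12% called). Junb (-0.43, adjusted p = 0.101), Fosb (-0.31, adjusted p = 0.603) and Fosl2 (-0.02, adjusted p = 0.983) did not pass in cluster 15 after both drugs. Atf3 (-0.61) and Ier2 (-0.49) did not pass there either. Cluster 16, marked by Arg1 and Ccl24, had 180 to 454 cells per vehicle mouse and 2 to 17 per SHP099 mouse, and no member was called there (0.197% called; 2 SHP099 mice). After vehicle, mean Junb was at 1639 CPM in cluster 16, 1308 in cluster 15 and 863 in cluster 25, and Fosl2 at 233, 134 and 76.3. Fos, Fosb and Ier2 were also highest in cluster 16, whereas Jun (241) and Atf3 (337) were lowest there. With both drugs too few mice had 10 cells of cluster 16 for a fit. The part of this mix in the macrophage calls was not tested. In cluster 16 the SHP099 estimates for Jun (-0.84, SE 0.21), Ier2 (-0.76, SE 0.22) and Fos (-0.40, SE 0.29) lay below 0. Those for Fosl2 (0.67, SE 0.22), Fosb (0.40, SE 0.20), Junb (0.19, SE 0.13) and Jund (0.07, SE 0.16) lay above 0.

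In monocytes, the class with the highest Atf3, Fos, Jun and Atf3 fell after SHP099 (3 of 9 genes tested beside 5.94% of 4783). After both drugs Fos, Jun and Atf3 fell and Egr1 rose (5.56% called). Fosl1 was too low to test. Fos was at 2789, 2041 and 2583 CPM after vehicle, 1268, 1114 and 1521 after SHP099 (-0.93, SE 0.19, adjusted p = 0.00552), 2982, 1958 and 1401 after SX682 and 1088, 1502 and 1254 after both (-0.94, adjusted p = 0.00599). The SHP099 and combination mice all lay below the vehicle mice, and the SX682 mice spread across both. Atf3 was at 1210, 1160 and 1234 after vehicle, 702, 821 and 801 after SHP099 (-0.64, SE 0.17, adjusted p = 0.0247) and 668, 512 and 381 after both (-1.19, SE 0.17, adjusted p = 0.00035). Egr1 went from 53.1, 38.7 and 102 after vehicle to 232, 140 and 203 after both drugs (1.77, SE 0.30, adjusted p = 0.00159), above all vehicle mice. After SHP099 it was at 94.5, 94.7 and 138 (0.94, adjusted p = 0.100), overlapping vehicle. Jun fell by 0.57 with SHP099 and 1.22 with both on the log2 scale. The SHP099 count of 3 dropped to 1 without vehicle mouse 1 or 2 or without any 1 of the SHP099 mice; in these runs Fos stayed called.

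The class joins clusters 12 and 13, which differed in level: after vehicle, Fos was at 413 ± 40.8 CPM (SD, n = 2) in cluster 12 and 3289 ± 570 (n = 3) in cluster 13, and Atf3 at 94.8 ± 4.4 and 1623 ± 113. Cluster 12 held 29.4%, 28.6% and 14.3% of the monocytes of the vehicle mice, 45.5%, 49.3% and 38.8% after SHP099 and 52.7%, 49.7% and 49.3% after both drugs; the part of this mix in the class differences was not tested. Within cluster 13 alone, Fos was lower after SHP099 (-0.74, SE 0.14, adjusted p = 0.00321; 6.14% called), while Atf3 (-0.35, SE 0.14, adjusted p = 0.135) and Jun (-0.33, SE 0.18, adjusted p = 0.279) did not pass the test. After both drugs Fos (-0.57), Jun (-0.89) and Atf3 (-0.85) were lower and Egr1 (2.12) was higher (6.1% called). SX682 gave 0 calls in the monocytes beside 0.397% of genes, with 2 of the 9 at an unadjusted p below 0.05. In cluster 12, where 2 vehicle mice had enough cells, no member was called (3.47% and 4.47% of genes called), and most estimates lay above 0. After SHP099 the log2 differences there were 0.43 (SE 0.25) for Fos, 0.70 (SE 0.21, adjusted p = 0.0688) for Junb, 0.93 (SE 0.43) for Atf3 and 0.15 (SE 0.36) for Jun. After both drugs Fos was at 0.33 (SE 0.24), Atf3 at 1.06 (SE 0.41) and Jun at -0.36 (SE 0.36). Neutrophil markers summed to 2181 to 3575 CPM in vehicle monocytes, 2295 to 3170 after SHP099 and 4440 to 7582 after both drugs; their part in the Egr1 difference was not tested.

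In tumour cells of the single-cell experiment, Fos, Jun and Ier2 were lower after SHP099 and after the combination, 3 of 10 genes each beside 13.4% and 10.3% of 10993 genes called. Fos was at 1103, 999 and 953 CPM after vehicle, 616, 574 and 689 after SHP099 (-0.70, SE 0.10, adjusted p = 0.000865), 1055, 922 and 881 after SX682 and 703, 691 and 582 after both (-0.63, SE 0.10, adjusted p = 0.00229). SHP099 and combination mice lay below all vehicle mice, and SX682 mice overlapped them. Jun was at 426, 382 and 367 after vehicle, 236, 326 and 297 after SHP099 (-0.45, SE 0.13, adjusted p = 0.0394) and 234, 209 and 162 after both (-0.96, SE 0.13, adjusted p = 0.00082). Ier2 was at 426, 411 and 377, then 233, 264 and 364 (-0.50, SE 0.14, adjusted p = 0.0316) and 254, 256 and 241 (-0.69, adjusted p = 0.00748). Jund was at 1091, 1056 and 1126 after vehicle and 1019, 975 and 1055 after SHP099 (-0.10, interval -0.25 to 0.05). The Fosl1 difference was -0.27 (interval -0.92 to 0.38). SX682 gave 0 calls beside 0.364% of all genes, with 1 of the 10 at an unadjusted p below 0.05.

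None of the 3 genes was called after SHP099 when every mouse was reduced to equal cell numbers (Fos -0.43, Jun -0.47, Ier2 -0.53) or every cell to 1000 UMIs. Only 1 was called when any vehicle mouse or SHP099 mouse 1 was left out. Summed macrophage markers in tumour cells were at 422 to 475 CPM after vehicle and 48.6 to 68.6 after SHP099, and tumour epithelial markers at 9319 to 11303 and 6234 to 9168. Of 15 ERK feedback and output genes, 2 fell after SHP099 (Spred2 -0.54, Dusp6 -0.53) and 1 rose (Lif 0.89), and the summed level was 1163 to 1200 CPM against 1067 to 1306. Of 12 heat shock genes 5 rose and 0 fell (Hspe1 1.09, Hspa1b 0.91, Hsph1 0.89, Dnaja1 0.55), with a sum of 7421 to 8580 against 8297 to 10202. The EGR targets Nab2 (1.07) and Pdgfb (0.79) rose, as did Srf (1.42), the factor of the CArG box. Other immediate early genes gave 6 lower calls of 23, Zfp36 (-0.86) and Dusp1 (-0.68) among them, and 1 higher. The part of each of these in the member differences was not tested. Tumour clusters 21 and 23 differed in level after vehicle (mean ± SD, n = 3). Fos was at 1479 ± 136 CPM in cluster 21 and 758 ± 120 in cluster 23, Jun at 426 ± 42.2 and 367 ± 53.8, and Ier2 at 361 ± 34.8 and 430 ± 24.6. The part of the cluster mix in the class differences was not tested. By cluster, Fos (-0.91) and Atf3 (-1.16) fell in cluster 21 with SHP099 (5.56% called), and Ier2 (-0.62) in cluster 23 (13.6% called). After both drugs Fos (-0.58) and Jun (-1.11) were lower and Fosl2 (0.63) higher in cluster 21 (9.81% called), and Fos (-0.62), Jun (-0.83) and Ier2 (-0.87) were lower in cluster 23 (8.91% called).

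**Figure D4:**
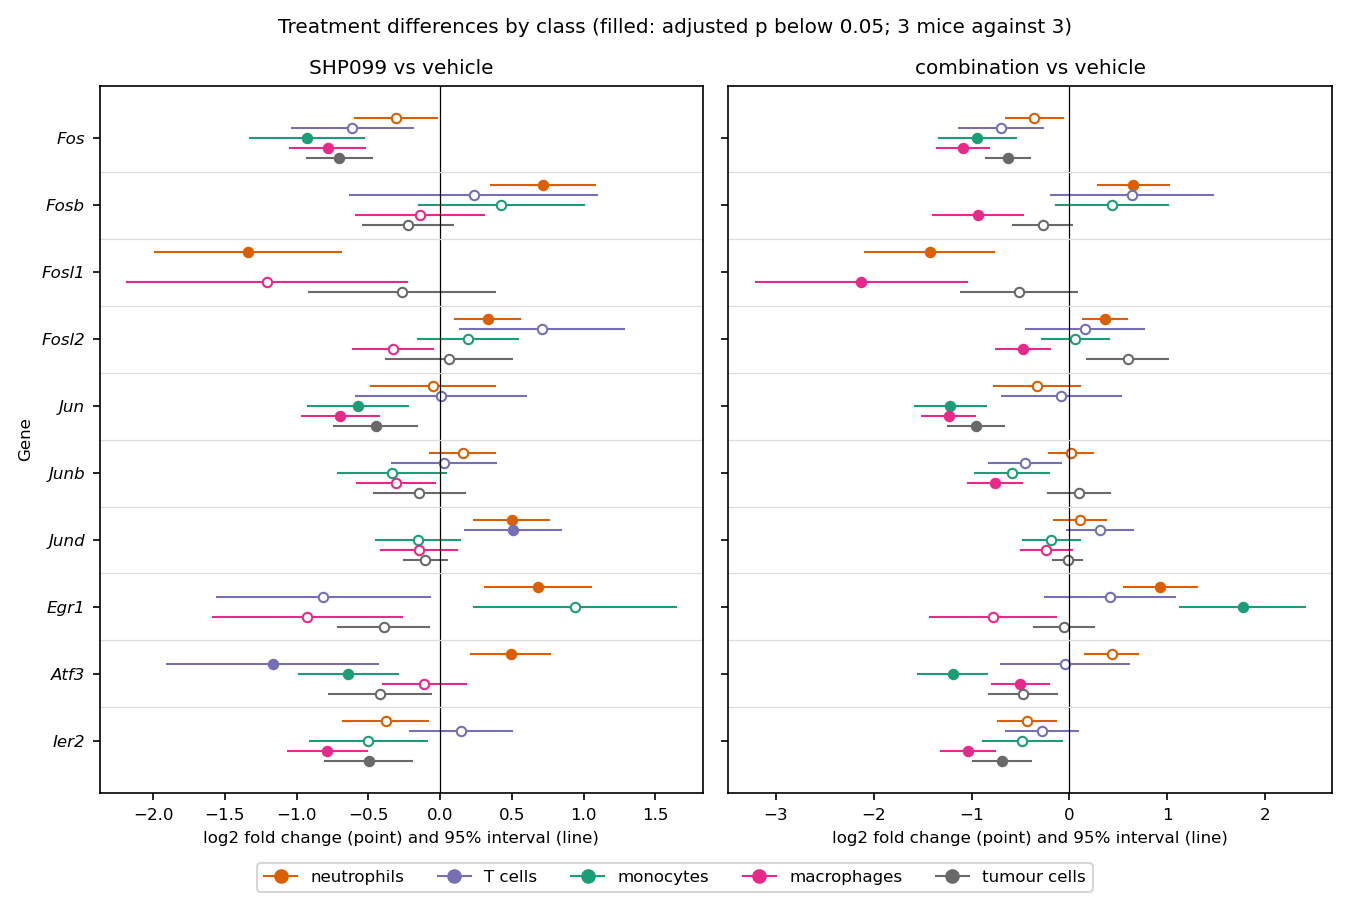
Log2 fold change (points) with its 95% interval (lines) against vehicle for each gene in 5 classes, for SHP099 (left) and the combination (right); filled points passed an adjusted p below 0.05 and the genes absent for a class were too low to test. Fos lies left of 0 in all 5 classes in both panels, while Egr1 and Atf3 are on opposite sides of 0 in neutrophils and macrophages after SHP099.

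In the sorted Epcam+ bulk libraries none of the 10 genes passed, beside 0.113% called (23 of 20314 genes, and 1812 at an unadjusted p below 0.05); 2 of the 10 had an unadjusted p below 0.05, and DESeq2 called 1, Fosb. Log2 fold changes were below 0 for 8 of the 10, with a median of -0.33 against -0.00 for all genes. Fosb was at 56.6, 70.2 and 68.1 CPM after vehicle and 44.0, 44.9 and 39.9 after SHP099 (-0.60, SE 0.12, adjusted p = 0.159 by edgeR's quasi-likelihood test). Its groups did not overlap. Fos was at 1453, 1980 and 1482 against 1505, 1267 and 1116 (-0.34, interval -0.73 to 0.05), Egr1 at 834, 1110 and 833 against 692, 552 and 841 (-0.41, interval -0.85 to 0.02) and Jun at 754, 943 and 686 against 690, 665 and 534 (-0.34, interval -0.70 to 0.03), all with overlapping groups. Jund was at 57.4, 30.5 and 99.8 against 32.2, 32.7 and 23 (-1.09, SE 0.39, adjusted p = 0.451), with overlap and a wide spread among the vehicle libraries. Only Atf3 (0.18) and Fosl2 (0.02) were above 0.

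Beside these, the ERK feedback and output list had a median of -0.35 with 0 of 16 called, and the heat shock list 0.17 with 0 of 12. Transcripts that mark other cell types were present in the sorted libraries. Alveolar type 2 markers such as Sftpc, from an Epcam+ epithelial cell, summed to 4426, 2998 and 6752 CPM in the vehicle libraries and 285, 307 and 566 after SHP099, macrophage markers to 572 to 600 and 247 to 397, and fibroblast markers to 1239 to 2250 and 413 to 785. Their part in the bulk values was not tested. In bulk samples, fewer cells of a type and less RNA per cell cannot be told apart, and the labels do not say whether the 3 libraries of a group came from separate mice, so the p-values measure the spread between these samples.

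**Figure D5:**
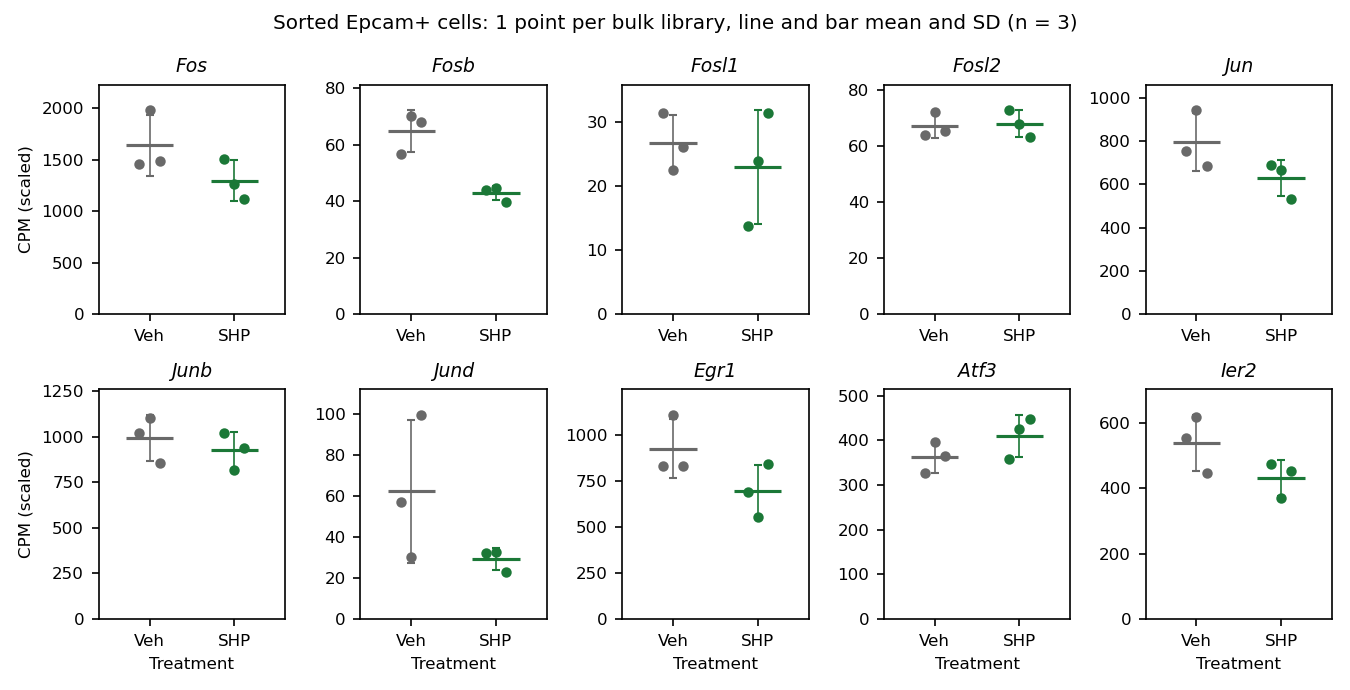
Levels of the 10 genes in sorted Epcam+ cells (vertical axes, scaled CPM, starting at 0) after vehicle (Veh) and SHP099 (SHP); points are bulk libraries, lines and bars the mean and SD of 3. Fosb is the gene whose SHP099 libraries (39.9 to 44.9) all lie below the vehicle libraries (56.6 to 70.2).

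T cells expressed little of the family. Jund was higher and Atf3 lower after SHP099, 2 of 9 genes tested beside 12.2% of 8330 genes called. Jund was at 291, 350 and 438 CPM against 405, 601 and 502, with overlap (0.51, SE 0.16, adjusted p = 0.0437), and Atf3 at 17.7, 23.9 and 12.1 against 6.21, 10.8 and 7.02 (-1.17, SE 0.35, adjusted p = 0.0341). Neither was called without vehicle mouse 1 or without SHP099 mouse 3, and 1 was without vehicle mouse 2. Macrophage markers in the T cells summed to 222 to 256 CPM after vehicle, 35.6 to 42.5 after SHP099, 90.5 to 147 after SX682 and 68.8 to 87.8 after both; their part in the Atf3 value was not tested. The combination and SX682 gave 0 calls, beside 3.79% and 0.312% of genes, each with 2 members at an unadjusted p below 0.05. Egr1 was higher with both drugs than with SHP099 alone (25.5, 35.3 and 71.4 against 12.4, 23.8 and 14.9; 1.23, SE 0.31, adjusted p = 0.0456; 1.66% called).

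Single T cell states held larger differences. In T8, the gamma delta T cells by Trdc, Trdv4 and Il17a, Junb was at 2410, 1884 and 1621 CPM after vehicle. It was at 1021, 900 and 693 after SHP099, 691, 669 and 561 after SX682 and 921, 1229 and 269 after both drugs. Every treated mouse lay below every vehicle mouse, with log2 fold changes of -1.14 (SE 0.27, adjusted p = 0.00498; 10.4% called), -1.63 (SE 0.29, adjusted p = 0.00253; 0.452% called) and -1.22 (SE 0.29, adjusted p = 0.0162; 3.47% called). The vehicle mice had 13 to 27 cells of this state. In T3, led by Klra7, Ly6c2 and the NK receptor genes Klrb1c and Klre1, Fosl2 rose from 29.2, 24.4 and 9.91 to 60.6, 125 and 92.2 after SHP099 (1.98, SE 0.40, adjusted p = 0.000529; 9.2% called) and to 76.9, 56.5 and 64.7 after both (1.48, adjusted p = 0.0487; 3.3% called), while Fos fell after SHP099 (-1.41) and Ier2 after SX682 (-0.94; 0.968% called). In the Foxp3+ state T6, Junb fell after SX682 from 1260, 1374 and 1713 to 770, 487 and 1056 (-0.83, adjusted p = 0.0367; 0.754% called). In T1, Junb rose after both drugs (1.45; 2.76% called; 2 vehicle mice).

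Fibroblasts, too few to test after SHP099 (4 to 7 cells per mouse), held 4 lower calls among 10 genes after both drugs, beside 3.41% of 7589. Fos was at 2187, 1770 and 1200 CPM after vehicle and 507 ± 67.0 (SD, n = 3) after the combination, whose lowest mouse was at 430 (-1.75, SE 0.25, adjusted p = 0.00496). Fosb was at 657, 607 and 529 against 154, 146 and 128 (-2.05, SE 0.32, adjusted p = 0.00645), with Junb at -1.53 and Atf3 at -1.48. No combination mouse reached a vehicle mouse for these genes, and 2 SX682 mice were at 1786 and 1167 for Fos. Atf3 kept its call in 5 of 10 alternative runs. Median UMIs per fibroblast were 8267 to 15091 after vehicle and 2773 to 3956 after both drugs; the part of depth was not tested.

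Among the remaining classes, dendritic cells had lower Ier2 after SHP099 (-0.53; 12.9% called) and lower Ier2 (-0.81), Jun (-0.83) and Junb (-0.69) after both drugs (5.28%). B cells had lower Fos after SHP099, at 40.3, 117 and 88.9 CPM against 191, 198 and 245 (-1.42, SE 0.30, adjusted p = 0.00559, with 9.04% called). They also had lower Atf3 (-2.50), a call kept in 4 of 10 alternative runs. After both drugs Fosl2 was higher (1.23, with 5.05% called), kept in 7 of 10. NK cells had lower Fos after SHP099, at 56.3, 9.34 and 22.2 against 111, 96.2 and 17.1 (-1.36, SE 0.45, adjusted p = 0.0416; 13.7% called); the groups overlapped, and the gene was not called without vehicle mouse 1 or 2. Their Fosl2 was at 174, 139 and 162 after both drugs against 65.3, 82.5 and 85.4 after vehicle (1.03, SE 0.23, adjusted p = 0.00731; 5.11% called), above all other mice. Alveolar macrophages had lower Egr1 after SHP099 (-1.25; 8.75% called) and lower Jun after both (-0.80; 7.94% called). Plasma cells had lower Egr1 after SHP099, at 12, 0 and 17.5 against 425, 253 and 401 (adjusted p = 0.0309; 0.785% called) with 12 to 21 cells per mouse. Cluster 14 had lower Junb (-0.70) and Ier2 (-1.04) after both drugs (1.6% called).

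The combination was also set against each single drug. Against SX682 it was lower for Fos (-0.53), Jun (-0.76) and Ier2 (-0.76) in tumour cells (3.8% of genes called) and for Fos (-0.75) and Atf3 (-0.89) in monocytes (2.72%). Fos (-1.53), Fosb (-1.45) and Junb (-1.24) were lower in fibroblasts (7.7%), Jun and Ier2 in dendritic cells (-0.82 and -1.02; 3.72%) and in alveolar macrophages (-0.84 and -0.65; 8.97%), and Ier2 in cluster 14 (-0.97; 2.65%). In neutrophils none of the 10 genes was called against SX682 (3.72% of genes; 4 of the 10 at an unadjusted p below 0.05) or against SHP099 (1.18%; 1 of the 10). Against SHP099, none was called in tumour cells (1.53%; 3 of the 10 at an unadjusted p below 0.05) or monocytes (0.355%; 3 of the 9). In lymphocytes the calls were higher ones: with both drugs Fos and Fosl2 were higher than with SHP099 alone in B cells (1.26 and 1.00; 2.11% called) and in NK cells (1.69 and 1.08; 2.05% called), and Fosl2 was higher than with SX682 in NK cells (1.54; 4.31% called). Whether adding SX682 acted differently on top of SHP099 than alone was tested by an interaction term, which passed for Fos in B cells (0.911% of genes called), for Fos, Fosl2 and Junb in NK cells (2.11%) and for Junb in T8 (1.36%).

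Whether a treatment effect differed between classes was tested directly, as the difference of the per-mouse log2 values in neutrophils and in another class, with limma and Benjamini-Hochberg adjustment. No member passed for neutrophils against macrophages, monocytes or tumour cells. The background was 1.25% (SHP099), 0% (SX682) and 0.518% (combination) of genes called against macrophages, 0% in all 3 against monocytes, and 0.909%, 0% and 0% against tumour cells. The estimates for Egr1 after SHP099 were 1.52 (SE 0.46, adjusted p = 0.129) against macrophages and 1.08 (SE 0.27, adjusted p = 0.0833) against tumour cells, and that for Atf3 was 0.94 (adjusted p = 0.0818) against tumour cells. Higher calls in neutrophils and lower calls elsewhere are therefore each a result against vehicle, and a difference between the classes was not shown.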

How the data were processed

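Bulk RNA-seq of sorted Epcam+ cells and 5′ single-cell RNA-seq of pooled, hashtagged mice were deposited by the authors as raw count tables, reads per gene and UMIs per gene and cell; the bulk table is labelled unstranded, although the library kit was stranded per the labels' protocols. The submitters' processing notes name STAR, HTSeq, Picard, DESeq2, Cell Ranger, bcl2fastq, bedtools, R 3.3.0 and the build mm10, with no roles. Cluster, state and mouse of each cell came from the deposited cell tables, whose cells all hold 500 or more UMIs, with a mitochondrial share of 20% or less; no doublet caller was run here. Counts were summed per mouse and class (mice with at least 10 cells) and fitted with edgeR 4.0.16 (R 4.3.3; TMM, filterByExpr, quasi-likelihood test, all 4 treatments in 1 fit, Benjamini-Hochberg over all genes tested, threshold 0.05); class differences used limma 3.58.1 and an alternative used DESeq2 1.42.0. The fits were tested on simulated data. RPKM used the union of a gene's exons. Intervals are 95%.

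The 10 genes were fixed by name, and from each related list up to 4 called genes with the largest change were named; the 5 genes most alike were taken by Pearson correlation over clusters. Members and lists were chosen with earlier results of these data known. Alternatives were the test, size factors, filter, cell numbers, depth, replicate block and leaving out each mouse. Those for monocytes, B cells, NK cells, fibroblasts and the states were chosen after seeing the data. The fits within single clusters and the class difference were also chosen then, and no alternatives were run for them. None were run either for the remaining classes, for the combination against a single drug or for the interaction term. Some genes that these rules name are not reported here.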

Additional observations from a re-analysis of the deposited data

Results flagged for a closer look

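The 5 results below were singled out because the effect of adding SX682 on top of SHP099 differed from the effect of SX682 alone, by an interaction term in edgeR's quasi-likelihood test with Benjamini-Hochberg adjustment over all genes (each value is a log2 difference; 3 mice per treatment). In NK cells it was 2.36 for Fos (SE 0.56, adjusted p = 0.0191), 1.58 for Fosl2 (SE 0.36, adjusted p = 0.0132) and 0.89 for Junb (SE 0.23, adjusted p = 0.0367), beside 2.11% of genes called. In B cells it was 1.88 for Fos (SE 0.41, adjusted p = 0.0387; 0.911% called), and in T cell state T8 it was 1.55 for Junb (SE 0.41, adjusted p = 0.0483; 1.36% called). NK cell Fos was at 124, 105 and 89.2 CPM after both drugs, 56.3, 9.34 and 22.2 after SHP099 and 75.4, 46.0 and 42.9 after SX682. Neutrophil markers in NK cells summed to 338 to 1788 CPM after vehicle, 824 to 1271 after SHP099, 65.2 to 728 after SX682 and 1410 to 3167 after both; their part was not tested.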

How the results depend on the processing

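Counts of the 10 genes called moved with several choices, and no called gene changed sign in any alternative run (298 of 4963 values did, none of them of a called gene). With DESeq2's Wald test in place of edgeR, bulk gave 1 call, SHP099 gave 1 in T cells, 1 in B cells and 0 in NK cells, SX682 gave 1 in monocytes and 1 over the states, and the combination gave 0 in B cells. With DESeq2 size factors, NK cells gave 2 after SHP099. Without the filter on low counts, SHP099 gave 4 in T cells, 6 in macrophages, 5 in tumour cells and 2 in NK cells. SX682 then gave 1 in T cells, 2 in monocytes and 2 in NK cells, and the combination 2 in T cells, 5 in tumour cells, 3 in B cells, 2 in NK cells and 9 in fibroblasts. With equal cell numbers per mouse, SHP099 gave 1 in neutrophils, 0 in T cells and 0 in tumour cells, and the combination 2 in neutrophils; with cells thinned to 1000 UMIs, tumour cells gave 0 after SHP099 and neutrophils 2 after both drugs. In a fit of only the treatments compared, T cells gave 1 after both drugs. For each of these the cause was not tested.

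Leaving out 1 mouse at a time, SHP099 gave 2 to 6 calls in neutrophils, 0 to 2 in T cells, 3 to 4 in macrophages, 1 to 4 in tumour cells, 1 to 3 in monocytes, 1 to 2 in B cells, 0 to 2 in NK cells and 9 to 17 over the states (9 without vehicle mouse 1). The combination gave 2 to 3 in neutrophils, 0 to 1 in T cells, 5 to 8 in macrophages, 3 to 4 in tumour cells, 3 to 4 in monocytes, 0 to 1 in B cells, 0 to 2 in NK cells, 3 to 6 in fibroblasts and 3 to 6 over the states; SX682 gave 1 to 2 over the states and 0 elsewhere, and bulk 0. Over all runs that left out a mouse, 187 of 270 calls were kept. In no comparison did all same-numbered mice correlate above 0.1 in their deviations (range -0.16 to 0.35), so the numbers were not taken as pairs. With the replicate number as a block, all 45 calls of a gene in a class that had alternative runs were kept in the same direction. The counts were then 7 in neutrophils after SHP099, 5 after both drugs and 4 in macrophages after SHP099. Few cells limit tumour cells after SHP099, fibroblasts, plasma cells and state T8.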
